A study of Homo sapiens with 2 samples.

Results

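The genes described here encode apolipoproteins made by hepatocytes and the lipid transfer protein MTTP. They were chosen by symbol from the gene table, and 9 of its 16424 genes are members: APOA1, APOA2, APOB, APOC1, APOC3, APOE, APOH, APOM and MTTP. Transcript starts were counted by cap analysis of gene expression (CAGE) in PLC/PRF/5, an established human hepatoma cell line. The cells of 1 library were non-treated (0 µg/ml), and those of the other, called M2BPGi-treated, received 3 µg/ml of M2BPGi for 6 h. M2BPGi is a glycosylation isomer of Mac-2 binding protein and is measured in serum as a marker of liver fibrosis. With 1 library per condition, no difference reported here has a replicate check, and the treatment and the library cannot be told apart. The libraries held 24040209 tags from non-treated and 24862941 tags from M2BPGi-treated cells.

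Apolipoproteins are the protein part of the particles that carry lipid through plasma, and the liver is a main source of most of them. APOB stays on its particle from synthesis to uptake, and MTTP loads it with lipid in the endoplasmic reticulum. The smaller apolipoproteins of the A, C, E and M groups bind to particle surfaces, where they shape enzyme activity, receptor binding and cargo.

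Levels are given as CPM, the tags of a gene scaled to a common library size. A tag marks the 5′ end of a transcript and each transcript gives 1 such end whatever its length, so CPM can be compared between genes with no division by length. Intervals beside a CPM are 95% exact Poisson intervals of the tags, and they cover counting error only. The lowest member had 25 tags in non-treated cells, and 6 members had a mean of at least 10 CPM.

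In non-treated cells, APOE was the highest member at 248 CPM (241 to 254). APOA2 followed at 241 CPM (235 to 248), and APOM had 214 CPM (208 to 220). These 3 genes held 86.4% of the summed CPM of the members in non-treated and 86.0% in M2BPGi-treated cells. APOC1 had 53.5 CPM, APOH 34.5 CPM and APOB 15.6 CPM in non-treated cells. APOA1 had 4.37 CPM (3.57 to 5.29), MTTP 1.75 CPM (1.26 to 2.36) and APOC3 1.04 CPM (0.673 to 1.54) in the same library. The members thus ran from rank 670 (APOA2) to rank 13705 (APOC3) by mean CPM among all listed genes.

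The order of levels differed between the libraries at its upper end. In non-treated cells the tag ratio of APOE to APOA2 was 1.03, with a Clopper-Pearson interval of 0.989 to 1.06, so these neighbours did not differ beyond counting error. In M2BPGi-treated cells APOA2 was above APOE by a ratio of 1.15 (1.11 to 1.19). From the third place down, the order was the same in both libraries. MTTP and APOC3, the lowest neighbours, differed barely beyond counting error in non-treated cells (ratio 1.68, 1.0 to 2.88) and did not in M2BPGi-treated cells (ratio 1.21, 0.679 to 2.17).

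**Figure D1:**
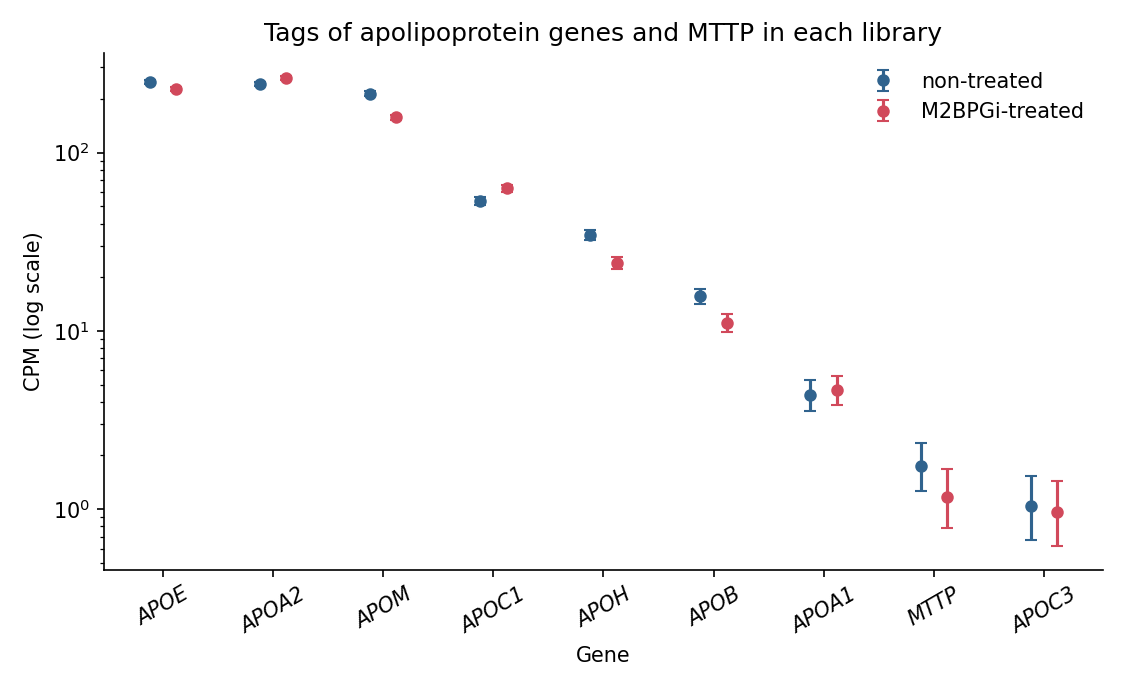
Level of each member in CPM on a log axis, in the non-treated (blue) and M2BPGi-treated (red) library, with 95% exact Poisson intervals as bars. APOE and APOA2 lie close together at the top, and APOC3 lies near 1 CPM in both libraries.

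The cells were checked against hepatocyte markers. Of 15 markers, 12 had a row and all 12 had a mean of at least 1 CPM, with a summed level of 6901 CPM without and 5787 CPM with M2BPGi. FGG was the most abundant of them in non-treated cells at 1402 CPM, followed by KRT18 at 1250 CPM. ALB, a defining marker, had only 8.82 CPM without and 7.04 CPM with M2BPGi, while AFP, the fetal counterpart of albumin, had 695 and 566 CPM. TF (6.61 and 4.02 CPM) and TTR (3.62 and 2.49 CPM), named after their values were seen, were lower than ALB in both libraries. Of 15 markers of fibroblasts, endothelial cells and leukocytes, 5 had a row. PTPRC and ITGAM were at 0 in both libraries, which allows up to 0.125 CPM without and 0.121 CPM with M2BPGi. COL1A1 had 0.67 and 0.76 CPM, COL3A1 had 4.53 and 3.42 CPM, and LYZ had 32.1 and 29.2 CPM, in non-treated and M2BPGi-treated cells.

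Since CAGE reads transcript starts, the sequences around the starts of 5 members above 10 CPM are shown, to set the genes that were lower in M2BPGi-treated cells beside those that were higher. They are RefSeq windows of build GRCh38.p14, from 100 bases before to 50 bases after the annotated start, written 5′ to 3′ on the strand of the gene. APOE has 3 annotated starts in that table, and the first is shown. Which start the tags of a gene used was not analysed here. Capitals mark matches, on either strand, to 7 motifs: the core promoter motif TATAAA and its variant TATATA, the box of promoters named CCAAT, the Sp-factor box GGGCGG, the nuclear receptor half-site AGGTCA, the forkhead motif GTAAACA and the HNF1 half-site GTTAAT. No pair of these matches overlaps.
APOA2, chr1:161223579-161223728, minus strand: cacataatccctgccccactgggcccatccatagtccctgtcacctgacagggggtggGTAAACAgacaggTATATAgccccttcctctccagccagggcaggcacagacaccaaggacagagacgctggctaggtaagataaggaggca
APOC1, chr19:44914572-44914721, plus strand: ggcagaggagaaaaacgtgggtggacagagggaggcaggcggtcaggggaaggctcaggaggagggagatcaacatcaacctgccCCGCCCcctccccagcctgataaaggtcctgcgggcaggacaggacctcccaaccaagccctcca
APOE, chr19:44905696-44905845, plus strand: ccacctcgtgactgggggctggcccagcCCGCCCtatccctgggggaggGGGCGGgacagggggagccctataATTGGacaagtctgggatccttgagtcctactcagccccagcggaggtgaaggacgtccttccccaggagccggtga
APOM, chr6:31655794-31655943, plus strand: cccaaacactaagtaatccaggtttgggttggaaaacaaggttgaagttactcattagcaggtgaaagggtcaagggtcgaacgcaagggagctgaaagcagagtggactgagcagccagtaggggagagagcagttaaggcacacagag
APOH, chr17:66229366-66229515, minus strand: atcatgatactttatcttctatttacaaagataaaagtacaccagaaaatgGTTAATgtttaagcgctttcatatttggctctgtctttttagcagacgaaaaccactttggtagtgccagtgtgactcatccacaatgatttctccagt

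The starts differ in the motifs they hold within the full window of 300 bases, of which 250 lie before the start. Distances are those of the first base of a match, read along the strand of the gene. The APOA2 window holds TATATA at 29 bases and GTAAACA at 42 bases before the start. Of the 35116 windows in the RefSeq table, 3.99% hold TATATA and 3.42% hold GTAAACA. The APOC1 window holds 1 GGGCGG on the opposite strand, 15 bases before the start, a motif found in 45.0% of all windows. The first APOE window holds GGGCGG at 51 bases and, on the opposite strand, at 72 bases before the start, and CCAAT on the opposite strand at 27 bases, which 34.6% of all windows hold. Of its other windows, the second holds none of the motifs and the third holds CCAAT on the opposite strand at 202 bases. The APOM window holds none of the 7 motifs. The APOH window holds GTTAAT at 49 bases before the start and, on the opposite strand, at 210 bases, against 6.88% of all windows with at least 1 match. In the RefSeq table MTTP has windows at 2 starts, the first with GGGCGG at 7 and 108 bases before the start. The second MTTP window holds AGGTCA on the opposite strand at 50 bases, a motif of 13.8% of all windows, and TATAAA (11.5%) and CCAAT on the opposite strand at 227 and 165 bases. These matches describe letters in the windows and nothing more.

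Differences between the libraries are given as log2 ratios, M2BPGi-treated over non-treated, with 1 CPM added to each value as a pseudocount, which understates the change of low genes. All genes tested are the 13724 genes with a mean of at least 1 CPM, and all 9 members passed, APOC3 with a mean of only 1.005 CPM. Intervals beside a log2 ratio are 95% Clopper-Pearson intervals of the tag ratio without a pseudocount. In such bulk samples fewer expressing cells and less RNA per cell cannot be told apart.

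APOB, the structural protein of very-low-density and low-density lipoproteins, had 15.6 CPM without and 11.1 CPM with M2BPGi. It was lower in M2BPGi-treated cells, with a log2 ratio of -0.46 (-0.73 to -0.27). MTTP, which transfers lipid to nascent APOB, had 1.75 and 1.17 CPM, from 42 and 29 tags. Its log2 ratio was -0.34, and the interval of its tag ratio (-1.32 to 0.13) included 0, so a difference was not detectable at this depth. The ratio of MTTP to APOB tags was 0.112 in non-treated and 0.105 in M2BPGi-treated cells, a log2 change of -0.09 with a Woolf interval of -0.81 to 0.63. Such a ratio within each library does not depend on how the libraries are scaled.

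APOA1 and APOA2 are the main proteins of high-density lipoprotein (HDL). APOA1 had 4.37 CPM without and 4.63 CPM with M2BPGi, and its log2 ratio of 0.07 (-0.31 to 0.48) did not differ from 0 beyond counting error. APOA2 was higher in M2BPGi-treated cells, at 261 CPM against 241 CPM, a log2 ratio of 0.11 (0.06 to 0.16). The APOA1 level was thus far under that of APOA2, with a tag ratio of APOA1 to APOA2 of 0.0181 and 0.0177. APOM, the HDL protein that binds sphingosine 1-phosphate, went the other way, from 214 to 158 CPM. Its log2 ratio was -0.44 (-0.50 to -0.38), and its difference of -56.2 CPM was the greatest in size among the members. The ratio of APOM to APOA2 tags was 0.887 in non-treated and 0.606 in M2BPGi-treated cells, a log2 change of -0.55 (-0.63 to -0.47).

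APOC1, an inhibitor of cholesteryl ester transfer protein, had 53.5 CPM without and 63.0 CPM with M2BPGi. Its log2 ratio of 0.23 (0.13 to 0.34) was the highest among the members. APOE, a ligand for the receptors that take up lipoprotein particles, had 248 and 226 CPM and a log2 ratio of -0.13 (-0.18 to -0.08). With the libraries rescaled to a median log2 ratio of 0 or by TMM factors, the APOE log2 ratio was -0.08. APOE and APOC1 are neighbours on chromosome 19 on the same strand, and they differed in opposite directions. The ratio of APOE to APOC1 tags was 4.63 in non-treated and 3.59 in M2BPGi-treated cells, a log2 change of -0.37 (-0.48 to -0.25). APOC3, an inhibitor of lipoprotein lipase, had 1.04 and 0.97 CPM, from 25 and 24 tags. Its log2 ratio of -0.05 had an interval of -0.98 to 0.76 for the tag ratio, so a difference was not detectable at this depth. APOC3 and APOA1 lie in a gene cluster on chromosome 11 on opposite strands, and their tag ratio was 0.238 and 0.209, a log2 change of -0.19 (-1.08 to 0.70).

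APOH, also called beta-2-glycoprotein I, is a plasma protein that binds anionic phospholipid. It had 34.5 CPM (32.2 to 37.0) without and 24.0 CPM (22.1 to 26.0) with M2BPGi. Its log2 ratio of -0.51 (-0.68 to -0.37) was the lowest among the members at a pseudocount of 1 CPM. The tag ratio corresponds to a level 1.44-fold lower, against 1.41-fold for APOB and 1.36-fold for APOM. Without a pseudocount, MTTP had the lowest log2 tag ratio of the members, -0.58, from 42 and 29 tags.

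None of the members passed a fold of 1.5: 0 of 9 were at least 1.5-fold lower, against 4.04% of all genes tested (555 genes), and 0 of 9 were at least 1.5-fold higher, against 1.6% (219 genes). With the libraries rescaled to a median log2 ratio of 0, these 2 numbers over all genes were 441 lower and 292 higher, and with scaling without the 100 most abundant genes they were 643 and 172. A log2 ratio below 0 was found for 6 of 9 members (66.7%), against 57% of all genes tested (7826 genes). The median log2 ratio of the members was -0.13, against -0.05 over all genes tested, whose quartiles were -0.26 and 0.14. With the libraries rescaled to a median log2 ratio of 0 or by TMM factors, the median of the members was -0.08. By counting error alone, the interval lay wholly below 0 for 4 members (APOB, APOE, APOH and APOM) and wholly above 0 for 2 (APOA2 and APOC1), and it included 0 for the other 3. Over all genes tested, the interval lay wholly below 0 for 31.5% (4317 genes) and wholly above 0 for 22.8% (3125 genes), so most genes passed on counting error alone and these counts set no member apart. The summed level of the members was 814 CPM without and 749.7 CPM with M2BPGi, a log2 tag ratio of -0.12 (-0.15 to -0.09).

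Ratios between members were compared as well. Of the 36 possible pairs, 17 had a change in their tag ratio whose Woolf interval excluded 0, and whether other genes of similar level would give fewer was not tested. The pairs reuse the same 9 genes and are not independent of each other. APOB (ENSG00000084674), APOH (ENSG00000091583) and APOM (ENSG00000204444) are set side by side because their log2 ratios were low, so the likeness of their changes is a description of that choice. Their mutual log2 changes were -0.03 (APOH to APOB), -0.06 (APOB to APOM) and -0.09 (APOH to APOM), with intervals that included 0. MTTP, from few tags, had changes of -0.09 to APOB, -0.06 to APOH and -0.14 to APOM, whose intervals also included 0. Its change of -0.82 to APOC1 had an interval that excluded 0, as did, barely, that of -0.69 to APOA2 (-1.38 to -0.01). Its changes of -0.67 to APOA1, -0.45 to APOE and -0.48 to APOC3 had intervals that included 0. Among all genes tested, 6.52% had a lower log2 ratio than APOH, 8.42% than APOB and 9.86% than APOM. At the upper end, 84.1% of genes had a lower log2 ratio than APOC1.

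**Figure D2:**
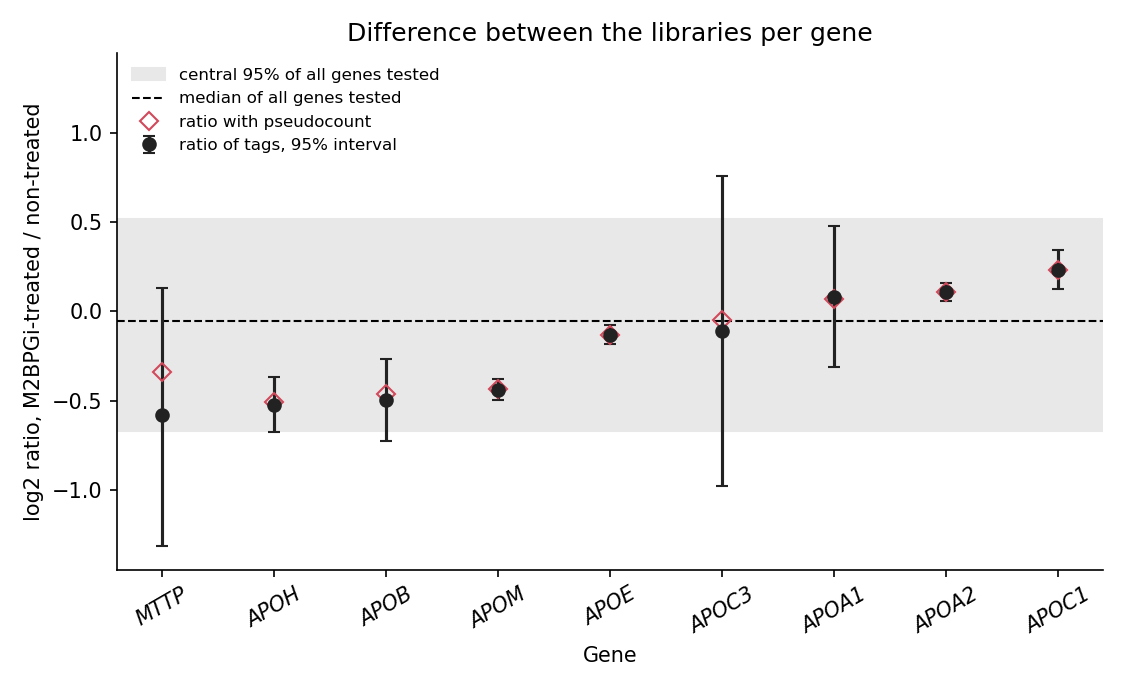
Log2 ratio of each member, M2BPGi-treated over non-treated, as the ratio of tags with its 95% Clopper-Pearson interval (black) and as the ratio with a pseudocount of 1 CPM (red diamonds). The grey band, from -0.67 to 0.52, holds the central 95% of all genes tested, and every diamond lies within it.

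Log2 ratios across all genes moved with transcript length in these libraries. Genes were put into 5 classes of nearly equal size by their longest GENCODE transcript. The median log2 ratio was 0.04 in the shortest class (up to 1677 nt) and -0.12 in the longest (from 5580 nt). Of the members, 7 lie in the shortest class, from APOC3 with 604 nt to APOA1 with 1227 nt, while MTTP has 4092 nt and APOB 14121 nt. APOH (1176 nt) and APOM (1184 nt) were lower although their class had a median above 0, and 8.96% and 11.7% of that class had a lower log2 ratio. APOB stood at 8.70% of the longest class. Relative to the median of the own class, APOB had a value of -0.34, APOH -0.54, APOM -0.47 and APOC1 0.19. The part of transcript length in these differences was not tested.

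**Figure D3:**
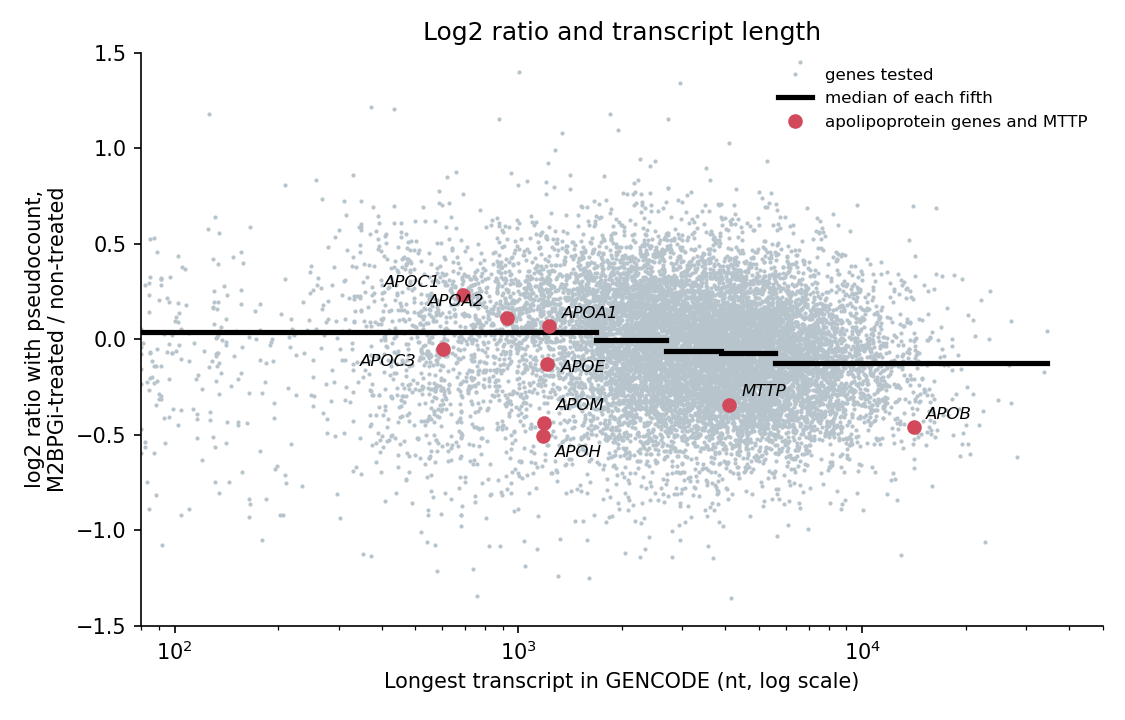
Log2 ratio with a pseudocount of 1 CPM against the length of the longest transcript in nt on a log axis, for genes tested (grey), members (red) and the median of each length class (black lines). The medians fall from 0.04 to -0.12 from the shortest to the longest class, and APOH and APOM lie below the line of their class; 93 genes are outside the axes.

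The counts of other gene lists are read against 57% of all genes tested with a log2 ratio below 0, 4.04% at least 1.5-fold lower and 1.6% at least 1.5-fold higher. Relative to the own length class, the median of all genes is 0 by construction. Of a list of 11 other proteins of lipoprotein particles, 4 genes were tested and all 4 were below 0 (against 57%), with a median log2 ratio of -0.30 and 0 past 1.5-fold. CLU (apolipoprotein J) was far above the members, at 7636 CPM without and 6256 CPM with M2BPGi, with a log2 ratio of -0.29. PON1 and PON3, which encode HDL-bound paraoxonases, share the same values in both libraries (145 and 116 CPM, log2 ratio -0.32), so 1 set of tags may have been given to both and counted 2 times in the list. SAA4, named after its values were seen, had 46 and 38 tags and an interval that included 0 (-0.98 to 0.33). No member shares its values with another gene of its chromosome and strand. Of the APOL and APOO families, which are named after apolipoproteins, 3 of 8 genes were tested, with log2 ratios of -0.32 for APOL2, 0.13 for APOOL and 0.16 for APOO. APOA4, APOA5, APOC2, APOC4 and LPA had no row and were not analysed here.

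Genes for the assembly and secretion of APOB particles had a median log2 ratio of -0.27 over 16 rows tested, of which 13 were below 0 (against 57% of all genes tested) and 2 were at least 1.5-fold lower (against 4.04%). A transcript length was found for 14 of the rows, both MIA2 rows being without one, and of these 11 were below 0 with a median of -0.17. Relative to the median of the own length class, 8 of the 14 were below 0, with a median of -0.06. VMP1, which acts in lipoprotein lipidation, fell from 242 to 160 CPM (log2 ratio -0.60). MIA2, a receptor for the export of large cargo, went from 29.4 to 19.1 CPM in 1 of its 2 rows (-0.60), and the cargo receptor gene SURF4 from 205 to 145 CPM (-0.50). In the other direction, the log2 ratio was 0.22 for SAR1B and 0.18 for PREB, which start the coat of secretory vesicles. SEC23A, for a protein of that coat, was near 0 at -0.05. SAR1A (-0.10), SEC24A (-0.29) and SEC24C (-0.08), named after their values were seen, were below 0. CIDEB, named after its values were seen, was the other gene above 0 (0.10, at 2.08 and 2.29 CPM). For triglyceride and cholesteryl ester synthesis, 12 of 13 genes tested were below 0 (against 57% of all genes tested), with a median of -0.28. The number was 10 of 13 with the libraries rescaled to a median log2 ratio of 0 or by TMM factors, and also relative to the own length class, where the median was -0.22. GPAM (-0.63) was at least 1.5-fold lower, SOAT1 had -0.40 and LPIN1 -0.36, while PNPLA3 (-0.04), LPIN2 (-0.01) and AGPAT3 (0.01) were near 0. For HDL formation and remodelling, 4 of 12 genes were tested, and 3 were below 0 with a median of -0.14. That median was -0.05 at a pseudocount of 5 CPM and -0.09 relative to the own length class, with 2 of the 4 below 0. The number below 0 was also 2 with the libraries rescaled to a median log2 ratio of 0 or by TMM factors. It was 4 with scaling without the 100 most abundant genes. BMP1 had a log2 ratio of -0.26 and PCOLCE2 of 0.01. Also tested were LIPC (-0.26, 36 and 27 tags) and ABCA1 (-0.02, 33 and 33 tags), named after their values were seen. Their intervals, -1.24 to 0.30 and -0.79 to 0.69, included 0, and the median of the list rests on these low genes.

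Of receptor and uptake genes, 10 of 11 tested were below 0 (against 57%), with a median of -0.18, and 0 were at least 1.5-fold lower (against 4.04%). Relative to the own length class, 9 of the 11 were below 0, with a median of -0.08. Among those at 10 CPM or more, LSR was one of the lowest, with 167 and 117 CPM (-0.51), and LRP8 (-0.17) and SDC1 (-0.05) were among the highest. VLDLR, named after its values were seen, was the gene above 0 (0.35, at 3.24 and 4.42 CPM). Transcription regulators of apolipoprotein genes had 15 of 27 below 0, near the 57% of all genes tested, and a median of -0.01. With the libraries rescaled to a median log2 ratio of 0 or by TMM factors, these were 12 of 27 and 0.04. Scaled without the 100 most abundant genes, they were 16 of 27 and -0.04. Relative to the own length class, 13 of 26 were below 0, with a median of 0.03. RXRB (-0.70) was at least 1.5-fold lower, USF1 had -0.51 and SREBF1 -0.39, while FOXA2 (0.49), CEBPB (0.46) and NR1H3 (0.33) were higher. HNF4A, named after its values were seen, had 39.1 and 43.8 CPM (0.16). Of 4 genes for editing of APOB mRNA, 3 had a row, and APOBEC1 had none and was not analysed here. Those with a row lay near 0, at 0.00 for SYNCRIP, 0.00 for RBM47 and 0.06 for A1CF. Their median of 0.00 was 0.05 with the libraries rescaled to a median log2 ratio of 0 or by TMM factors, -0.03 with scaling without the 100 most abundant genes, and 0.12 relative to the own length class, where 0 of 3 were below 0.

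Hepatocyte markers outside lipid transport had a median log2 ratio of -0.35, with 11 of 12 below 0 (against 57% of all genes tested). The number was 10 of 12 with the libraries rescaled to a median log2 ratio of 0 or by TMM factors, and relative to the own length class. At least 1.5-fold lower were 2 of 12 (against 4.04%), FGB (-0.61) and TF (-0.60), the latter named after its values were seen. FGA (-0.56) and SERPINA1 (-0.56) came close to that fold, CPS1 (-0.17) and KRT8 (-0.04) were nearer 0, and KRT18 was higher (0.35). The part of these marker levels in the lower values of APOH, APOB and APOM was not tested.

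**Figure D4:**
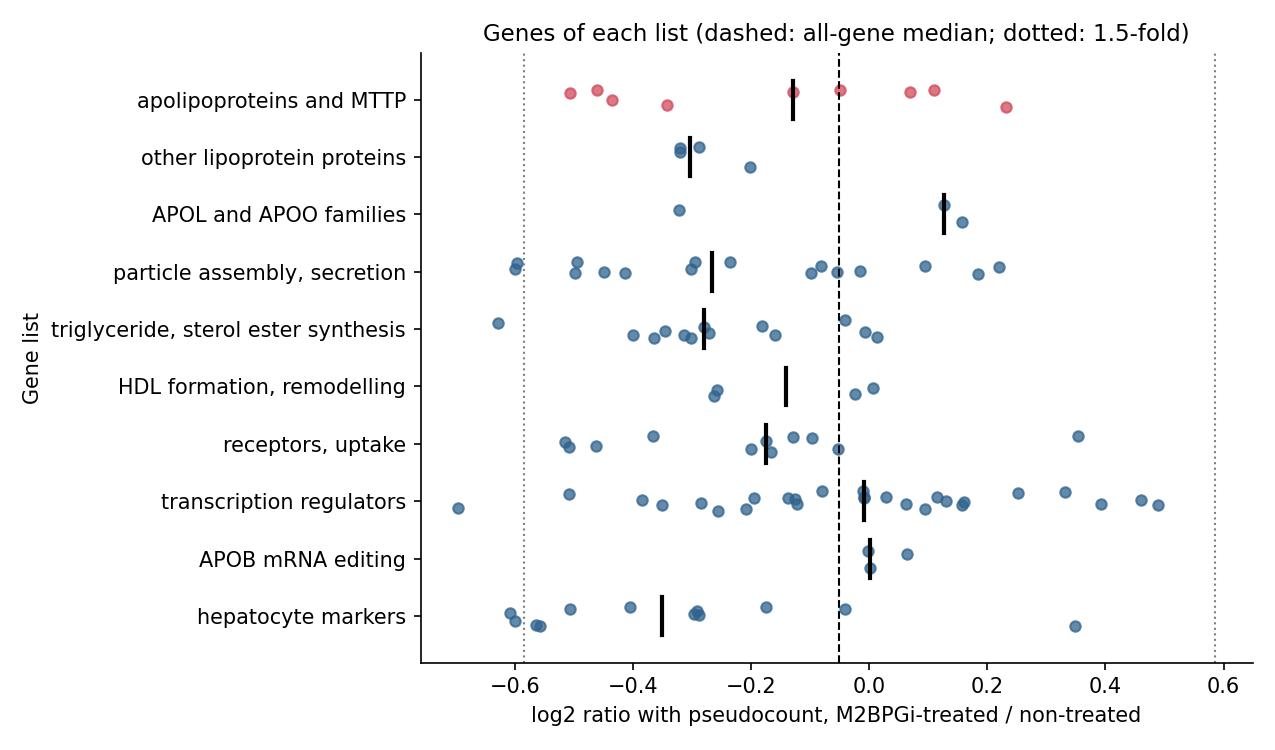
Log2 ratio with a pseudocount of 1 CPM for the genes tested of each list, 1 point per gene, with the median of each list as a black bar. The median of the members (-0.13) lies between that of all genes tested (-0.05, dashed) and that of the hepatocyte markers (-0.35), and no member passes the dotted lines at a fold of 1.5.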

How the data were processed

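The deposited CAGE values are CPM with 2 decimals. The submitters' processing notes name BWA, HISAT2 and the build hg19, while the study's methods name a mouse build; gene identifiers are human. Tags were read back from the CPM: within the rounding, 100% of values above 0 were whole multiples of 1 tag. At a tolerance of 0.1 tag, only 87.6% of low non-treated values were, under the 95% set for a test on tags, so the binomial test in the design was not made. Tags serve for tag ratios and for intervals (Poisson, Clopper-Pearson, and Woolf for pairs of genes), with no p-value taken. Counts of intervals that exclude 0 rest on the same tags and cover counting error only. Clopper-Pearson intervals use the same binomial, so their counts come close to that test without its adjustment for the number of genes. Log2 ratios used a pseudocount of 1 CPM, a mean of at least 1 CPM and a fold of 1.5. Called means past that fold. Members and lists were chosen with earlier results of these data known. Named list genes are the 3 lowest and 3 highest log2 ratios of a list at a mean of at least 10 CPM, or all where 6 or fewer. Some genes that this rule selects are not reported here. Rows with the same symbol and values count once. Motifs were chosen with the sequences in view. Promoter windows matched 6 of the 9 members by symbol, and not APOA1, APOB and APOC3. Transcript lengths came from GENCODE 29 by identifier, for 96.7% of genes tested. Python 3.11.15, numpy 2.4.6, scipy 1.17.1 and pandas 2.3.3 were used, and steps were tested on simulated data.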

Additional observations from a re-analysis of the deposited data

How the results depend on the processing

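The values of the 9 members were recomputed under 6 alternatives: pseudocounts of 0.1 and 5 CPM, 3 rescalings of the libraries (a median log2 ratio of 0, without the 100 most abundant genes, and TMM factors) and, chosen after the data were seen, log2 ratios relative to the median of genes of similar transcript length. All 54 values kept their sign and lay within the interval of the tag ratio. The intervals of APOA1, APOC3 and MTTP are wide, so for these genes lying within them says little. With the median at 0, APOA2 was barely inside (0.16171, upper bound 0.16175), as was APOE (-0.07808, upper bound -0.07750). The median log2 ratio of the members ran from -0.17 (transcript length) to -0.08 (median at 0, and TMM factors), and the number below 0 was 6 under each. At least 1.5-fold lower were 0 members under each of these, 4 with a fold of 1.2 in place of 1.5 (which 24.2% of all genes tested passed), and 0 with a fold of 2.

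Over all genes, 856 were at least 1.5-fold lower and 336 higher at a pseudocount of 0.1 CPM, 164 and 91 at 5 CPM, and 223 and 135 among genes with a mean of at least 10 CPM, against 555 and 219. Rescaled to a median log2 ratio of 0 or by TMM factors, 441 were lower and 292 higher, and scaled without the 100 most abundant genes, 643 and 172. Without a filter, 582 and 224 passed. The list medians near 0 changed sign with the scaling: the regulators went from -0.01 to 0.04 (median at 0, TMM factors) and -0.04 (without the 100 most abundant genes), and APOB mRNA editing from 0.00 to 0.05 and -0.03. At a pseudocount of 5 CPM the HDL genes had a median of -0.05. List medians relative to genes of similar transcript length also moved. That of 14 assembly and secretion genes went from -0.17 (11 below 0) to -0.06 (8 below 0). That of 11 receptor and uptake genes went from -0.18 to -0.08, and that of 13 synthesis genes from -0.28 to -0.22. The median of 4 HDL genes went from -0.14 to -0.09, and that of 3 editing genes from 0.00 to 0.12. For 26 regulators the median turned from -0.01 (14 below 0) to 0.03 (13 below 0).

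The adjusted binomial test of the design and its rescaled alternative were not run. The low tag numbers of APOA1, APOC3 and MTTP limit what their ratios can show. Spread between cultures is unknown.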
